A study of Danio rerio with 35 samples.

Results

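The mir-430 hairpin (mir-430_hairpin in the file) was a single entry in the deposited exon table, 1 of its 27997 entries, and it was followed across all 31 mRNA-seq libraries of whole zebrafish embryos, sampled 2, 4, 6 and 8 hours after fertilization (hours post fertilization, hpf). The entry was taken by its name. Each library came from 5 embryos and was sequenced either as rRNA-depleted total RNA (24 libraries) or as poly(A)+ RNA (7 libraries). The study compared embryos before and after the maternal-to-zygotic transition, when the embryo starts to transcribe its own genome and removes the mRNA laid down in the egg, and asked which transcription factors that start needs. Levels are the RPKM values that the authors deposited, that is, reads relative to the length of the entry and to the size of the library.

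The loss-of-function groups were made by injection at the 1-cell stage, per the labels. In the TUAB strain, embryos received a morpholino (MO, an antisense oligonucleotide that blocks translation or splicing) against Nanog, against the SoxB1 factors or against both, MOs against the spliceosomal RNAs U1 and U2, or alpha-amanitin, an inhibitor of RNA polymerase II. Cycloheximide, which blocks translation, was given in the bath from the 32-cell stage. MZpou5f1 embryos, homozygous for the hi349Tg insertion and lacking maternal and zygotic pou5f1 (pou5f3 in the annotation), were used uninjected, with the Nanog MO, with the SoxB1 MO, with both MOs (here called triple loss), or with both MOs and a rescue mRNA whose composition the labels do not give. Uninjected TUAB embryos (WT) were the controls. Replicates existed only in total RNA at 6 hpf, for Nanog+SoxB1 MO (n = 2) and WT (n = 3). These are labelled only as separate samples, so p-values measure the spread between these samples, and every other value is that of 1 library.

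miR-430 is a zebrafish microRNA family that is transcribed by RNA polymerase II at the onset of zygotic transcription and promotes the deadenylation and clearance of many maternal mRNAs. Its genes lie side by side in many copies, and their transcripts are cut to hairpins by Drosha and Dgcr8 in the nucleus and then to mature microRNAs by Dicer. The libraries were mRNA-seq, so the values are taken here as the precursor transcript and not the mature microRNA. Which forms of that transcript the entry counts was not given. In the RefSeq gene table (assembly GRCz12tu, which differs from the files' Zv9) 58 miR-430 genes were listed, of which 18 were miR-430a, 19 miR-430b, 18 miR-430c and 3 miR-430i. Of these, 46 followed each other with no other gene between. Of the 55 with an Ensembl identifier, 0 had a row of their own in the exon table, so the copies could not be told apart. The length and coordinates behind the hairpin entry were not given in the sources used here.

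**Figure D1:**
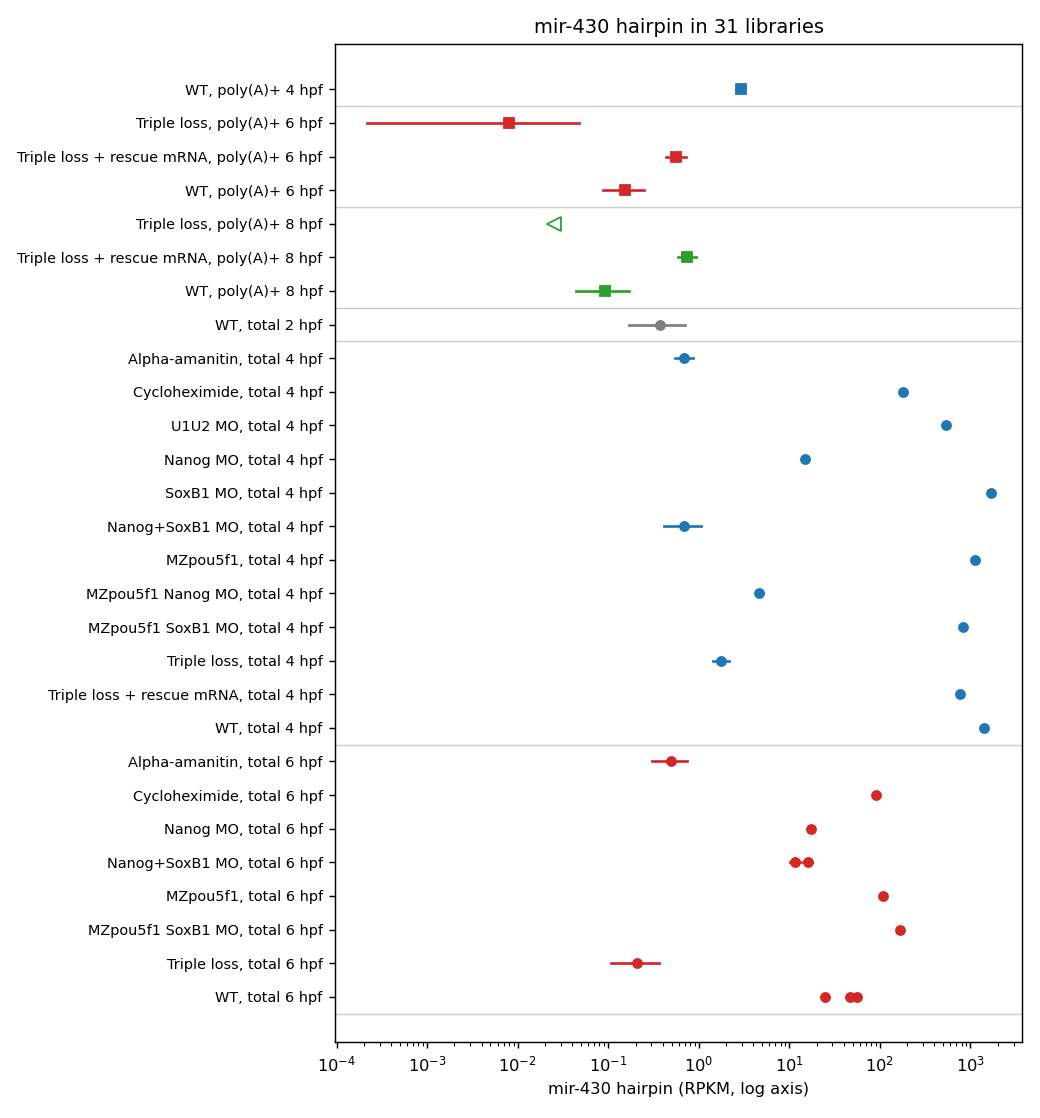
Level of the mir-430 hairpin in each of the 31 libraries, in RPKM on a log axis, in blocks by kind of RNA and stage. Circles are total RNA and squares poly(A)+ RNA, horizontal bars are exact 95% Poisson intervals (counting error only, hidden by the symbol at high counts), and the open triangle marks the level of 3 reads in a library with 0 reads. The values run from 0 RPKM to 1688 RPKM. In total RNA at 4 hpf the 4 libraries with the Nanog MO and no rescue mRNA lie far left of WT.

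The hairpin was nearly absent before the transition, was among the most abundant entries of the table at 4 hpf and had fallen again by 6 hpf. At 2 hpf the WT library had 0.374 RPKM, which corresponded to about 9 reads (95% Poisson interval 0.171 to 0.709 RPKM). At 4 hpf WT total RNA had 1406 RPKM, rank 18 of 27151 entries. At 6 hpf the 3 WT libraries had 25.0, 46.5 and 56.6 RPKM, a mean of 42.7 ± 16.1 (SD, n = 3), and ranked between 1554 and 3154. The level at 4 hpf was thus 3760-fold that at 2 hpf and 32.9-fold the 6 hpf mean. No 6 hpf WT library came near the 4 hpf value.

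In a limma fit of all libraries on log2(RPKM + 0.5), the difference of 4 hpf over 2 hpf was 10.65 ± 0.58 (SE; adjusted p = 0.0017), the highest of 17738 genes tested, of which 2.58% were called higher. The difference of 6 hpf over 4 hpf was -5.10 ± 0.47 (adjusted p = 0.0010), the third lowest of the same genes, of which 33.4% were called lower. WT at 2 and 4 hpf was 1 library each and was assumed to vary like the 6 hpf replicates. RPKM is a share of the sequenced RNA of whole embryos, so fewer cells making the transcript and less RNA per cell cannot be told apart.

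Poly(A)+ libraries held very little of the hairpin. WT poly(A)+ RNA had 2.91 RPKM at 4 hpf, against 1406 RPKM in total RNA, a 484-fold difference. At 6 hpf it had 0.153 RPKM (about 16 reads), 279-fold under the total RNA mean of 42.7 RPKM, and at 8 hpf 0.092 RPKM (about 10 reads, 95% Poisson interval 0.0442 to 0.170). The log2 difference of poly(A)+ over total RNA was -8.69 ± 0.58 at 4 hpf (limma adjusted p = 0.0014) and -5.97 ± 0.47 at 6 hpf (adjusted p = 0.0031). At these stages 10.4% and 13.3% of 17738 genes were called lower in poly(A)+ RNA, and the hairpin was the 31st and the 112th lowest. The poly(A)+ level at 6 hpf was below the pseudocount of 0.5, so the log2 difference and rank at 6 hpf are set in part by it. Under other settings of the fit the 6 hpf difference ran from -7.32 to -5.17. RPKM is scaled within each library, so these are differences in share and not in amount.

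Within poly(A)+ RNA the order of the stages matched that in total RNA at 4 and 6 hpf. The 6 hpf library was lower than the 4 hpf one by 19.0-fold in RPKM, with a log2 difference of -2.38 ± 0.58 (limma adjusted p = 0.020, where 32.3% of genes were called lower). This call was lost when no filter on low values was used (adjusted p = 0.077) and when either Nanog+SoxB1 MO replicate was left out of the shared spread (adjusted p = 0.057 each time). Between 8 and 6 hpf the difference was -0.14 ± 0.58 (limma adjusted p = 0.997). In that comparison limma called 0 genes and 1926 had an unadjusted p under 0.05.

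Alpha-amanitin left almost none of the hairpin, whereas cycloheximide left part of it at 4 hpf. Alpha-amanitin gave 0.694 RPKM at 4 hpf (about 78 reads, interval 0.548 to 0.865), which was 0.049% of the 1406 RPKM in WT. At 6 hpf alpha-amanitin gave 0.489 RPKM (about 22 reads, interval 0.306 to 0.739), against 25.0, 46.5 and 56.6 RPKM in WT. The intervals of both libraries overlapped that of WT at 2 hpf. The 6 hpf log2 difference was -5.37 ± 0.43 (limma adjusted p = 9.7e-05), in a comparison that called 28.7% of 16242 genes lower.

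Under cycloheximide the hairpin was present at 4 hpf at 183 RPKM, 13.0% of WT, rank 283 of the table. That library is 1 embryo pool, without a replicate check. At 6 hpf cycloheximide gave 90.4 RPKM, above each of the 3 WT libraries and 212% of their mean. The log2 difference at 6 hpf was 1.15 ± 0.43 and did not pass (limma adjusted p = 0.055, where 37.5% of genes were called higher). It passed with a filter at 5 RPKM (adjusted p = 0.031) and without WT replicate 1 or 3 (0.81 and 1.39, adjusted p = 0.040 and 0.031). From 4 to 6 hpf the level fell 2.02-fold under cycloheximide, against 32.9-fold in WT, and the cycloheximide effect at 6 hpf was 4.09 ± 0.75 above that at 4 hpf on the log2 scale (limma adjusted p = 0.017, where 18.3% of 17738 genes were called higher). That call was lost with no filter on low values (adjusted p = 0.057) and without either Nanog+SoxB1 MO replicate (adjusted p = 0.059 each). U1U2 MO embryos, in which the spliceosomal RNAs were blocked, had 541 RPKM at 4 hpf, 38.4% of WT, with no replicate.

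Nanog is a homeodomain factor supplied by maternal mRNA. At 4 hpf every library with the Nanog MO and no rescue mRNA held far less of the hairpin than its match without the MO. These 4 libraries had 15.0 RPKM (Nanog MO), 0.681 RPKM (Nanog+SoxB1 MO), 4.68 RPKM (MZpou5f1 Nanog MO) and 1.76 RPKM (triple loss). The 4 matching libraries without the Nanog MO had 1688 RPKM (SoxB1 MO), 1141 RPKM (the library labelled MZpou5f1), 831 RPKM (MZpou5f1 SoxB1 MO) and 1406 RPKM (WT). The groups were far apart and did not overlap. Paired by background, the Nanog MO lowered the hairpin 94.0-fold in TUAB embryos, 2479-fold with the SoxB1 MO, 244-fold in MZpou5f1 and 471-fold in MZpou5f1 with the SoxB1 MO. Over these 8 libraries an additive limma model gave a Nanog MO effect of -8.32 ± 0.53, the lowest of 14498 genes (adjusted p = 8.4e-05), of which 2.34% were called lower. This fit held no replicates, so its p-values rest on departures from the additive model.

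The SoxB1 proteins are HMG-box factors (Sox2, Sox3, Sox19a and Sox19b). Without the Nanog MO, the SoxB1 MO left the hairpin at 1688 RPKM, against 1406 RPKM in WT, a ratio of 1.20, and at 831 RPKM in MZpou5f1 SoxB1 MO, against 1141 RPKM in the library labelled MZpou5f1. With the Nanog MO present, the level was 0.681 RPKM with the SoxB1 MO added (about 20 reads, interval 0.415 to 1.05), against 15.0 RPKM with the Nanog MO alone (interval 13.8 to 16.2), a 22.0-fold difference. In MZpou5f1 embryos the same addition gave 1.76 RPKM, against 4.68 RPKM, a 2.65-fold difference. The SoxB1 MO effect over all 8 libraries was -1.27 ± 0.53 and did not pass (limma adjusted p = 0.271, where 0.0552% of genes were called lower). It turned to 0.27 ± 0.94 when 4 and 6 hpf libraries were fitted together with stage as a block. The difference of the Nanog effect with and without the SoxB1 MO was -2.35 ± 0.71 (adjusted p = 1.00). For this interaction limma called 0 of 14498 genes and 419 had an unadjusted p under 0.05, the hairpin among them (unadjusted p = 0.012).

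With Pou5f3, a POU-domain factor, lost, the hairpin was lower in 3 of 4 matched pairs of single libraries at 4 hpf and higher in 1. The library labelled MZpou5f1 had 1141 RPKM, against 1406 RPKM in WT, and MZpou5f1 SoxB1 MO had 831 RPKM, against 1688 RPKM in SoxB1 MO. MZpou5f1 Nanog MO had 4.68 RPKM, against 15.0 RPKM in Nanog MO, a level 3.20-fold lower. Triple loss had 1.76 RPKM, against 0.681 RPKM in Nanog+SoxB1 MO, a level 2.59-fold higher. The additive effect was -0.49 ± 0.53 (limma adjusted p = 0.488), in a model where 18% of genes were called lower. It ranged from -1.14 (without the Nanog+SoxB1 MO library, adjusted p = 0.030) to 0.075 (without the Nanog MO library). Pou5f3's own transcript had 28.0 RPKM in the library labelled MZpou5f1, against 157 RPKM in WT, whereas the other MZpou5f1 libraries without rescue at 4 hpf had 0.088, 1.87 and 0.235 RPKM. That level goes against the label in part. Without this library the Nanog MO effect was -8.57 ± 0.59 (limma adjusted p = 0.00056) and the MZpou5f1 effect -0.24 ± 0.59 (adjusted p = 0.775).

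**Figure D2:**
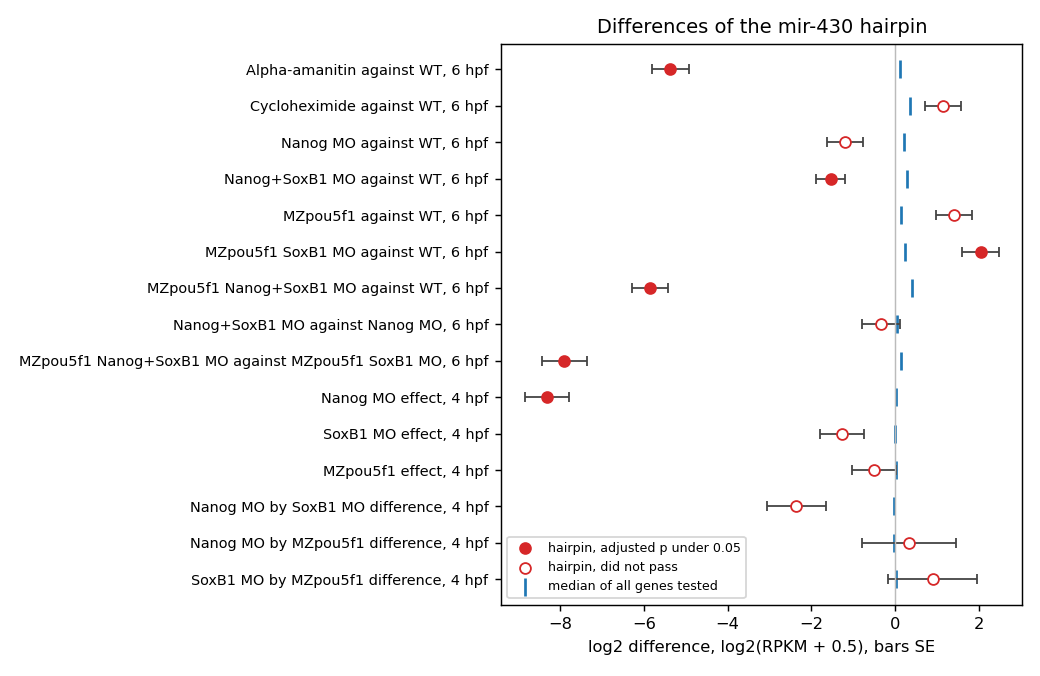
Log2 differences of the mir-430 hairpin in total RNA at 6 hpf (upper 9) and 4 hpf (lower 6), with SE bars from limma on log2(RPKM + 0.5). Filled red points passed an adjusted p of 0.05, open points did not, and blue marks give the median of all genes tested. The 4 most negative differences are alpha-amanitin and triple loss against WT, triple loss against MZpou5f1 SoxB1 MO, and the Nanog MO effect at 4 hpf.

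At 6 hpf the Nanog MO library held 40.5% of the WT mean, and the lowest level was that of triple loss. Nanog MO embryos had 17.3 RPKM and Nanog+SoxB1 MO embryos 15.9 and 11.6 RPKM, against 25.0, 46.5 and 56.6 RPKM in WT. The Nanog MO and Nanog+SoxB1 MO libraries all lay under the lowest WT library. The difference from WT was -1.20 ± 0.43 for Nanog MO, which did not pass (limma adjusted p = 0.079, where 10.1% of 16242 genes were called lower), and -1.54 ± 0.34 for Nanog+SoxB1 MO (adjusted p = 0.011, where 14% were called lower). Nanog MO passed under median-ratio scaling (adjusted p = 0.036), with a filter at 5 RPKM (0.044) and without WT replicate 1 (0.015). Nanog+SoxB1 MO no longer passed without either of its own replicates (adjusted p = 0.061 and 0.111) or with no filter on low values (0.080). The 2 MO groups differed by -0.34 ± 0.46 (Nanog+SoxB1 MO minus Nanog MO, adjusted p = 0.780, where 0.616% of genes were called lower), less than the SE of the difference.

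Triple loss embryos had 0.207 RPKM at 6 hpf, about 12 reads (interval 0.107 to 0.361), which was 0.485% of the WT mean. Its interval overlapped that of WT at 2 hpf. The difference from WT was -5.85 ± 0.43 (limma adjusted p = 0.00021), in a comparison that called 15.7% of genes lower. MZpou5f1 SoxB1 MO embryos, without the Nanog MO, had 169 RPKM, so the 2 MZpou5f1 SoxB1 MO libraries with and without the Nanog MO differed 814-fold. This difference, -7.90 ± 0.53, was the lowest of 16242 genes (adjusted p = 0.00085), of which 2.35% were called lower. Nanog+SoxB1 MO embryos of the TUAB strain averaged 13.7 ± 3.06 RPKM (SD, n = 2), 66.4-fold over triple loss.

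In MZpou5f1 embryos without the Nanog MO the hairpin was above every WT library at 6 hpf, and 1 of the 2 differences passed. MZpou5f1 had 108 RPKM and MZpou5f1 SoxB1 MO 169 RPKM, both above the highest WT library (56.6 RPKM). The difference from WT was 2.05 ± 0.43 for MZpou5f1 SoxB1 MO (limma adjusted p = 0.019, where 16.6% of genes were called higher) and 1.41 ± 0.43 for MZpou5f1, which did not pass (adjusted p = 0.114, where 2.23% were called higher). The MZpou5f1 SoxB1 MO call was lost with no filter on low values (adjusted p = 0.098) and without either Nanog+SoxB1 MO replicate (0.057 each), both of which entered only the spread. From 4 to 6 hpf the level fell 10.6-fold in the libraries labelled MZpou5f1 and 4.93-fold in MZpou5f1 SoxB1 MO, against 32.9-fold in WT.

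**Figure D3:**
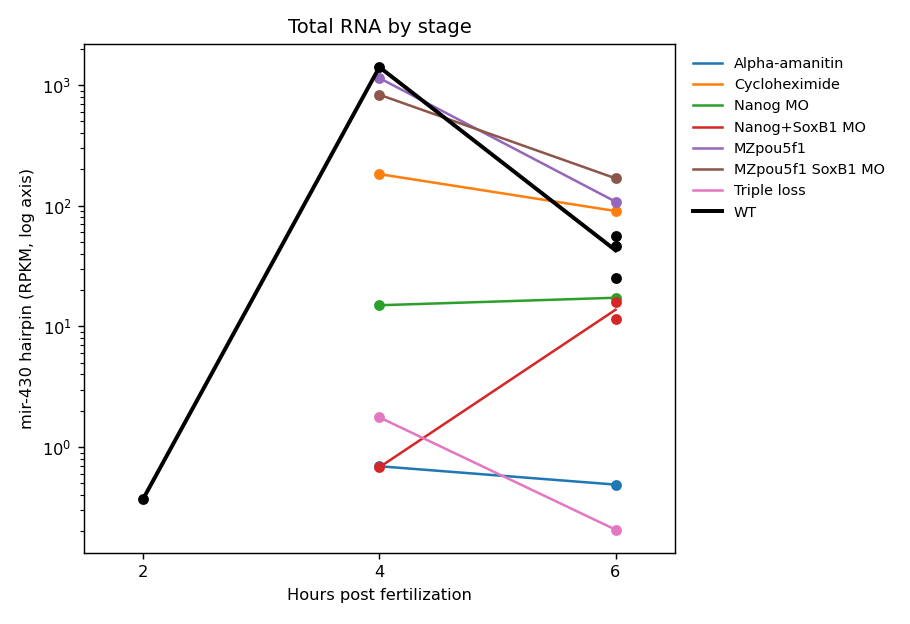
Level of the mir-430 hairpin in total RNA at 2, 4 and 6 hpf, in RPKM on a log axis, for the 8 conditions with libraries at 4 and 6 hpf; only WT was sampled at 2 hpf. Points are libraries and lines join the means. At 6 hpf Nanog+SoxB1 MO has a mean of 13.7 RPKM and Nanog MO 17.3 RPKM, against 42.7 RPKM in WT (black), although both lie far under WT at 4 hpf.

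The course between the stages differed among the conditions. Nanog+SoxB1 MO was the condition with the highest ratio of 6 hpf over 4 hpf among the 8, with 15.9 and 11.6 RPKM at 6 hpf, against 0.681 RPKM at 4 hpf, a 20.2-fold ratio of the means. Its effect against WT was 8.68 ± 0.69 higher at 6 hpf than at 4 hpf, the highest such difference of 17738 genes (limma adjusted p = 0.013, where 5.48% were called higher). That call was lost without WT replicate 2 (adjusted p = 0.060) and without Nanog+SoxB1 MO replicate 1 or 2 (adjusted p = 0.102 and 0.091). In Nanog MO embryos the level was 17.3 RPKM at 6 hpf, against 15.0 RPKM at 4 hpf. In triple loss it was 0.207 RPKM at 6 hpf, against 1.76 RPKM at 4 hpf, an 8.52-fold drop. Stage differences also passed for Nanog MO, alpha-amanitin and triple loss, in comparisons that called 1.05%, 12.9% and 8.9% of genes higher. Without either Nanog+SoxB1 MO replicate none of these 3 passed (highest adjusted p 0.166, 0.054 and 0.112 in that order). Nanog MO also lost its call without WT replicate 1 or 2 (adjusted p = 0.084 and 0.140) and triple loss without WT replicate 2 (0.091), and both lost it with a pseudocount of 0.1, with no filter and without the trend. That of MZpou5f1, which rests on the library labelled so at 4 hpf, was 1.71 ± 0.75 and did not pass (limma adjusted p = 0.405, where 0.0169% were called higher). The WT level itself moved 32.9-fold, so each stage difference contains the fall in WT.

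The hairpin was present again in embryos given the rescue mRNA. At 4 hpf the rescued embryos had 769 RPKM, against 1.76 RPKM in triple loss, a 436-fold difference, and reached 54.7% of the 1406 RPKM in WT. In poly(A)+ RNA at 6 hpf they had 0.566 RPKM (about 63 reads, interval 0.434 to 0.723), against 0.008 RPKM in triple loss (about 1 read). In WT poly(A)+ RNA it was 0.153 RPKM (interval 0.0874 to 0.248). At 8 hpf the rescued embryos had 0.743 RPKM (about 80 reads, interval 0.588 to 0.923), against 0 reads in triple loss, which allows up to 0.0254 RPKM (3 reads), and 0.092 RPKM in WT. The rescued embryos thus stood under WT in total RNA at 4 hpf. In poly(A)+ RNA they stood 3.70-fold and 8.08-fold above WT at 6 and 8 hpf. At each stage the intervals did not overlap. Stage and kind of RNA changed together between these comparisons, so they cannot be told apart. Intervals cover counting error only.

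Over all 3 stages, with stage as a block, limma gave 3.60 ± 1.62 for rescue against triple loss (adjusted p = 0.431), -3.30 ± 1.62 for triple loss against WT (0.153) and 0.30 ± 1.62 for rescue against WT (0.923). None of these 3 passed, and the fit held no replicates. Without the triple loss library at 4 hpf the first was 0.90 and the second -0.60. Of 16028 genes, 0.605% were called higher in rescue than in triple loss, 4.64% lower in triple loss than in WT and 0.611% higher in rescue than in WT. These effects average over both kinds of RNA, since the 4 hpf libraries were total RNA and the later ones poly(A)+ RNA. Rescued embryos also carried more RNA of the targeted factors than WT. At 4 hpf nanog had 2395 RPKM, against 598 RPKM in WT, and pou5f3 819 RPKM, against 157 RPKM in WT. The SoxB1 members were higher as well, with sox2 at 443 RPKM, against 0.275 RPKM, and sox3 at 623 RPKM, against 43.3 RPKM. For sox19a the levels were 583 RPKM, against 52.2 RPKM, and for sox19b 574 RPKM, against 325 RPKM. The part of these levels in the hairpin's level was not tested.

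In order of level, the total RNA libraries at 4 hpf ran from SoxB1 MO (1688 RPKM) through WT, the library labelled MZpou5f1, MZpou5f1 SoxB1 MO, rescue and U1U2 MO to cycloheximide (183 RPKM). Below them came, at 6 hpf, MZpou5f1 SoxB1 MO, MZpou5f1, cycloheximide, the 3 WT libraries, Nanog MO and Nanog+SoxB1 MO. The Nanog MO library at 4 hpf (15.0 RPKM) lay within the range of the Nanog MO and Nanog+SoxB1 MO libraries at 6 hpf (11.6 to 17.3 RPKM). At the low end, alpha-amanitin at 4 hpf (0.694 RPKM) and Nanog+SoxB1 MO at 4 hpf (0.681 RPKM) had overlapping intervals, as did alpha-amanitin at 6 hpf, WT at 2 hpf and triple loss at 6 hpf.

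Among 2101 genes with at least 10 RPKM in some total RNA library and a range of at least 4 on the log2 scale, the 10 whose scaled profile lay closest to the hairpin's were listed by the mean difference of scaled values over 24 libraries. The closest was mxtx2, a homeobox gene of the yolk syncytial layer, with a mean difference of 0.103, followed by zgc:195170 (0.105) and her5 (0.116), a bHLH repressor. Of the 10, 6 had no symbol in the annotation. The log2 differences of these 6 in triple loss against WT at 6 hpf ran from -0.65 to 1.25, against -5.85 for the hairpin. With Spearman correlation in place of this measure 6 of the 10 stayed on the list, and with the 12 libraries at 4 hpf only 2 stayed. The points share their libraries and the scaling, and the likeness was not tested.

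**Figure D4:**
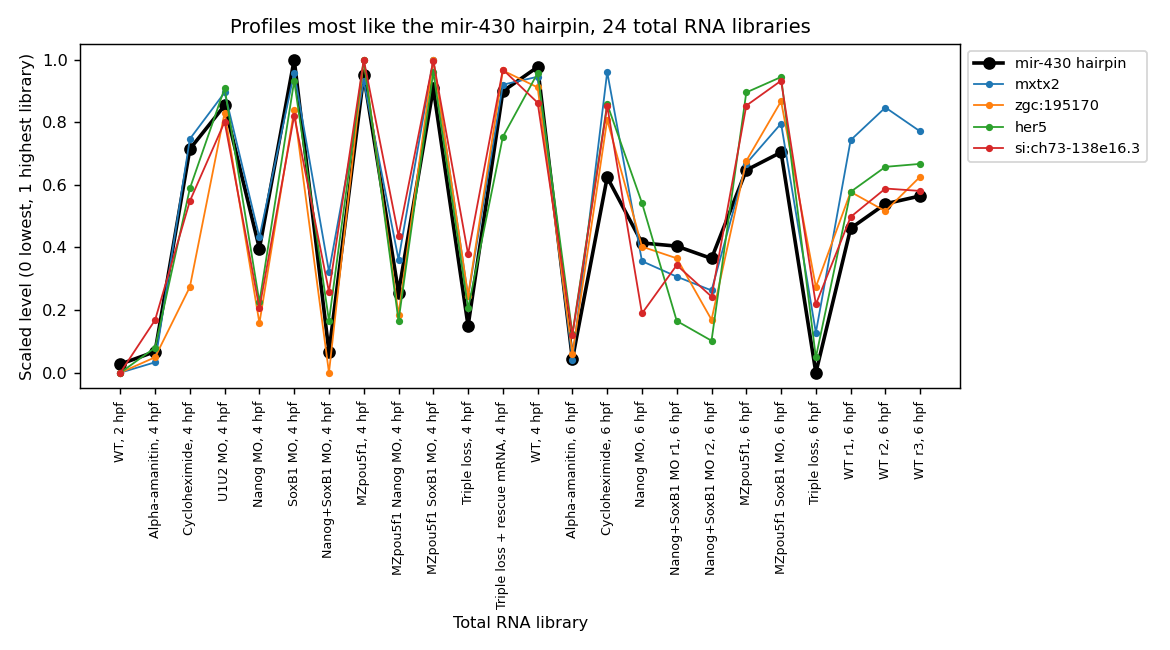
The mir-430 hairpin (black) and the 4 genes with a symbol among the 10 most like it, across 24 total RNA libraries. The y axis is log2(RPKM + 0.5) scaled for each gene so that its lowest library is 0 and its highest 1; libraries run from left to right by stage, with WT last within each stage. The 5 plotted profiles share their low points in alpha-amanitin, triple loss and the Nanog MO libraries at 4 hpf without rescue mRNA. The 4 genes were chosen by closeness in these same libraries. Genes without a symbol are not shown.

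In total RNA at 4 hpf mxtx2 had 3.35 RPKM in Nanog MO, 2.25 RPKM in MZpou5f1 Nanog MO and 1.08 RPKM in triple loss, against 42.8 RPKM in WT. For her5 the same libraries had 1.35, 0.807 and 1.15 RPKM, against 128 RPKM in WT. Both genes were at 0 RPKM in WT at 2 hpf. These total RNA libraries were among those used to choose both genes. They differed from the hairpin in poly(A)+ RNA at 4 hpf, where mxtx2 had 43.8 RPKM and her5 145 RPKM, close to their levels in total RNA. At 6 hpf in total RNA mxtx2 had 16.2, 26.8 and 18.5 RPKM in WT, against 42.8 RPKM at 4 hpf. In WT poly(A)+ RNA at 6 hpf mxtx2 had 2.30 RPKM and her5 3.58 RPKM, so at this stage both were also low there. Their log2 differences of poly(A)+ over total RNA at 6 hpf were -2.88 ± 0.34 and -2.28 ± 0.38. In Nanog+SoxB1 MO against WT at 6 hpf mxtx2 differed by -3.42 and her5 by -4.19, against -1.54 for the hairpin. In MZpou5f1 SoxB1 MO at 6 hpf (1 library) mxtx2 differed from WT by 0.06 and her5 by 2.60, against 2.05 for the hairpin.

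Other microRNA genes with rows in the exon table were mostly at 0 or low. Of 97 such genes, 75 were at 0 in WT total RNA at 4 hpf and 11 reached 1 RPKM. The highest was MIR1306, at 198 RPKM, a microRNA whose human counterpart lies within DGCR8, and it had 203 RPKM already at 2 hpf. Next came MIR18A at 20.7 RPKM, MIR15A at 16.8 RPKM, MIR92A1 at 16.4 RPKM, MIR19A at 14.1 RPKM and MIR17 at 12.8 RPKM, all at 0 at 2 hpf. At 4 hpf MIR18A had 5.67 RPKM in Nanog MO and 7.47 RPKM in Nanog+SoxB1 MO, against 20.7 RPKM in WT. In the same order MIR92A1 had 1.73 and 2.28 RPKM, MIR19A 1.35 and 3.55 RPKM and MIR17 1.98 and 5.22 RPKM. MIR15A, at 11.3 and 12.75 RPKM, and MIR1306, at 171 and 204 RPKM, stood closer to WT. Reads were not counted for these genes, so 0 and low values can rest on few reads. Relative depth was 0.309 in WT at 2 hpf, 0.497 in Nanog MO and 0.378 in Nanog+SoxB1 MO (WT total RNA at 4 hpf = 1).

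**Figure D5:**
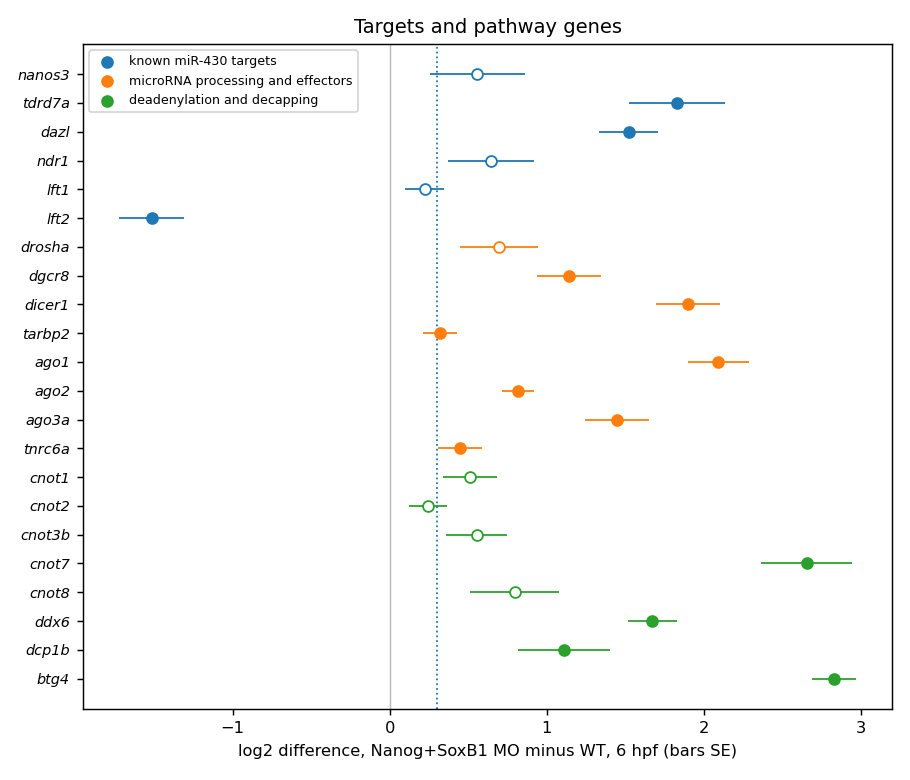
Log2 differences of the known miR-430 targets, the microRNA processing and effector genes and the deadenylation and decapping genes in Nanog+SoxB1 MO minus WT at 6 hpf, with SE bars from limma. Filled points passed an adjusted p of 0.05 and the dotted line is the median of all genes tested (0.30). Of the 22 genes plotted, lft2 is the only member lower in Nanog+SoxB1 MO among those that passed.

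In Nanog+SoxB1 MO embryos at 6 hpf 30.3% of all genes tested were called higher and 14% lower. The calls among genes known to be repressed by miR-430 in zebrafish were near these shares. Of 8 listed targets 6 could each be matched to a single row, and of these 2 rose, 1 fell and 3 did not pass. Their median was 0.60, against 0.30 over all genes. Without WT replicate 3, 4 of the 6 rose. tdrd7a, a Tudor protein of germ granules, had 21.1 and 20.7 RPKM in Nanog+SoxB1 MO, against 5.54, 3.62 and 8.30 RPKM in WT (log2 difference 1.83 ± 0.30, limma adjusted p = 0.0037). dazl, an RNA-binding germ cell protein, had 21.2 and 25.3 RPKM, against 7.20, 6.75 and 9.58 RPKM in WT (1.52 ± 0.19, adjusted p = 0.0011). The groups did not overlap for either gene.

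lft2, a secreted Nodal antagonist, was lower, with 11.3 and 11.7 RPKM in Nanog+SoxB1 MO, against 28.7, 30.6 and 43.9 RPKM in WT (-1.52 ± 0.20, limma adjusted p = 0.0016). It was at 0 RPKM in WT at 2 hpf, against 89.7 RPKM for dazl and 42.4 RPKM for tdrd7a. nanos3 (0.56), ndr1, a Nodal ligand (0.65), and lft1 (0.22) did not pass. The Nanog MO, alpha-amanitin and triple loss comparisons share the WT libraries. In them tdrd7a differed from WT by 2.14, 2.25 and 1.88 and dazl by 1.81, 1.60 and 1.62, each past the threshold, where 19%, 31% and 32.8% of genes were called higher. In MZpou5f1 SoxB1 MO, where the hairpin was higher than in WT, dazl also rose, by 1.10 ± 0.24 (limma adjusted p = 0.020), and tdrd7a did not pass (0.78 ± 0.39, adjusted p = 0.177). Over the 6 targets with a row the median difference from WT was 1.16 in Nanog MO, -1.24 in alpha-amanitin and 0.80 in triple loss. Over all genes these medians were 0.21, 0.11 and 0.40. In alpha-amanitin at 6 hpf ndr1, lft1 and lft2 had 0.353, 0.569 and 0.096 RPKM, each below every WT library of that stage. At 4 hpf every target with a row was lower in alpha-amanitin than in WT (1 library each). There dazl had 27.9 RPKM, against 46.7 RPKM in WT, tdrd7a 20.6 RPKM, against 32.4 RPKM, and nanos3 51.0 RPKM, against 89.6 RPKM. The part of miR-430 in these levels was not tested.

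Most measured genes of the microRNA machinery were higher in Nanog+SoxB1 MO embryos at 6 hpf. Of 14 listed processing and effector genes 8 could each be matched to a single row, and 7 of these 8 rose. The median of the 8 was 0.98, against 0.30 over all genes, of which 30.3% were called higher. ago1, an Argonaute that carries the microRNA, rose by 2.09 ± 0.19, and dicer1, which cuts the hairpin, by 1.90 ± 0.21. dicer1 had 16.0 and 11.2 RPKM in Nanog+SoxB1 MO, against 3.35, 3.17 and 3.14 RPKM in WT. dgcr8, which binds the primary transcript with Drosha, rose by 1.14, and the Argonautes ago2 and ago3a by 0.81 and 1.45. The Dicer partner tarbp2 rose by 0.32 and the Argonaute partner tnrc6a by 0.44 (limma adjusted p = 0.048 and 0.040), while drosha (0.69) did not pass. Under median-ratio scaling 5 of the 8 passed, and 5 also with no filter on low values. Without either Nanog+SoxB1 MO replicate 4 of the 8 passed. Of 13 listed deadenylation and decapping genes 8 could each be matched to a single row and 4 rose, against the same 30.3% of all genes. The median of these 8 was 0.95. Those that rose were the deadenylase subunit cnot7 (2.66), its adaptor btg4 (2.83), the helicase ddx6 (1.67) and the decapping cofactor dcp1b (1.11). Other deadenylase subunits, cnot1 (0.51), cnot2 (0.24), cnot3b (0.55) and cnot8 (0.79), did not pass. A median above that over all genes was not confined to Nanog+SoxB1 MO for the 8 processing and effector genes. Against WT at 6 hpf their median was 1.26 in alpha-amanitin and 1.35 in triple loss (1 library each). Over all genes these medians were 0.11 and 0.40.

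Several of these genes were themselves falling in WT between 4 and 6 hpf. In WT total RNA, 33.4% of genes were called lower at 6 hpf than at 4 hpf and 19.1% higher. Of the 8 processing and effector genes 5 fell, among them dicer1 (-1.95), ago1 (-2.10) and drosha (-2.49), and tnrc6a, a partner of Argonaute, rose (0.94). Of the 8 deadenylation and decapping genes 6 fell, with btg4 the lowest at -5.09 ± 0.16 (limma adjusted p = 0.00027). For the Nanog MO effect at 4 hpf, 5.35% of genes were called higher and 2.34% lower. In these lists btg4 rose by 0.48, dazl by 0.43 and nanos3 by 0.39, lft2 fell by 2.92, and no processing or effector gene passed.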

How the data were processed

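The 31 exon columns were analysed as deposited, in RPKM, 1 library per column, with replicates kept apart. Tools named in the submitters' processing notes were TopHat2 2.0.7, Bowtie 0.12.9 and CASAVA 1.8.2, with the build Zv9 (danRer7). Their order, the treatment of reads that map to several copies and the library totals are not given in the sources used here. Intron and ribosome profiling tables were left out. Of 27997 entries, 846 that join overlapping genes were left out, which left 27151.

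Reads per hairpin value were estimated from a single-read step shared by 6 libraries. The step was chosen to bring these 6 closest to whole numbers (within 0.053 read). That distance is thus the error of the fit and not a separate check. Relative depth ran from 0.227 to 2.58 (WT total RNA at 4 hpf = 1). Intervals are exact 95% Poisson intervals, covering counting error only, since no molecular identifiers mark PCR copies.

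Differences were fitted on log2(RPKM + 0.5), which understates changes of low genes, by limma 3.58.1 (lmFit and eBayes with trend, R 4.3.3). Genes entered a fit when 2 libraries or more reached 1 RPKM, and calls needed a two-sided Benjamini-Hochberg adjusted p under 0.05 over all genes tested. The 6 hpf fit took 11 total RNA libraries. The 4 hpf fit took 8, each of Nanog MO, SoxB1 MO and MZpou5f1 present or absent, with no replicates, so its spread also holds effects that are not additive. The rescue fit took 9 libraries with stage as a block, and the fit of all 31 libraries gave stages, kinds of RNA and stage differences. In the 6 hpf fit and the fit of all 31 libraries, single libraries were assumed to vary like the replicated groups. The rescue fit held no replicates, so its spread also holds effects that differ between stages and kinds of RNA. The fits were tested on simulated data in which all genes and libraries had the same noise. That test could therefore not check the assumption on single libraries. Gene names were matched by symbol or identifier for 71.8% of entries. A list member counted as having a row only when its name matched a single row after the joined entries were left out. Members without such a match may still be part of the deposited values.

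The hairpin and the gene lists were chosen with earlier results of these data known. Genes to name were the list members with a value, the targeted factors, the 10 genes most like the hairpin and other microRNA genes in the table. Of the genes most like the hairpin and the other microRNA genes the text gives only some (the closest 3, and the highest microRNA genes at 4 hpf). Alternatives were the pseudocount, the filter on low values, median-ratio scaling, eBayes without trend, a replicate block and leaving out each library.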

Additional observations from a re-analysis of the deposited data

Results flagged for a closer look

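For 5 conditions the effect on the hairpin differed between stages by a test of the difference itself, the effect against WT at 6 hpf minus that at 4 hpf, in limma on log2(RPKM + 0.5) with 1 library a condition at 4 hpf. The difference was 8.68 ± 0.69 for Nanog+SoxB1 MO (adjusted p = 0.013) and 5.30 ± 0.75 for Nanog MO (adjusted p = 0.045). It was 4.83 ± 0.75 for alpha-amanitin (adjusted p = 0.013), 4.09 ± 0.75 for cycloheximide (adjusted p = 0.017) and 3.42 ± 0.75 for triple loss (adjusted p = 0.042). For the library labelled MZpou5f1 it was 1.71 ± 0.75 and did not pass (adjusted p = 0.405). Leaving out 1 of 5 replicated 6 hpf libraries at a time ended the call in 4 of 5 fits for Nanog MO (highest adjusted p 0.166), in 3 of 5 for Nanog+SoxB1 MO and triple loss (0.102 and 0.112) and in 2 of 5 for alpha-amanitin and cycloheximide (0.054 and 0.059). All share the 4 WT libraries, whose own fall of 32.9-fold enters each of them. The triple loss and alpha-amanitin levels at 6 hpf were below the pseudocount of 0.5, so their stage differences are set in part by it.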

How the results depend on the processing

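Of 371 values under alternatives, 322 kept their direction and call, 30 lost and 7 gained a call, 10 changed sign and 2 counts moved; the cause was not tested. With no filter, calls were lost for Nanog+SoxB1 MO (-1.54) and MZpou5f1 SoxB1 MO (2.05) against WT at 6 hpf, poly(A)+ RNA at 6 over 4 hpf (-2.38) and the stage differences of cycloheximide (4.09), Nanog MO (5.30) and triple loss (3.42). A filter at 5 RPKM gave calls for cycloheximide (1.15) and Nanog MO (-1.20) against WT at 6 hpf, and median-ratio scaling for Nanog MO (-1.37). The stage differences of Nanog MO and triple loss lost their calls with a pseudocount of 0.1 (5.32 and 2.52) and without the trend (5.30 and 3.42). The SoxB1 MO effect turned to 0.27 with both stages fitted together. Of the 10 look-alikes, 6 stayed with Spearman correlation and 2 with 4 hpf libraries.

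Leaving out 1 library at a time gave, at 6 hpf against WT, 0.81 to 1.39 for cycloheximide, -1.54 to -0.96 for Nanog MO, -1.88 to -1.30 for Nanog+SoxB1 MO and 1.71 to 2.29 for MZpou5f1 SoxB1 MO. Stage differences ran from 4.49 to 5.07 (alpha-amanitin), 3.75 to 4.33 (cycloheximide), 4.96 to 5.54 (Nanog MO), 8.34 to 8.92 (Nanog+SoxB1 MO) and 3.08 to 3.67 (triple loss). The poly(A)+ difference kept -2.38 and lost its call without either Nanog+SoxB1 MO replicate. At 4 hpf the MZpou5f1 effect ran from -1.14 to 0.075, its difference by Nanog MO from -1.28 to 1.97 and by SoxB1 MO from -0.54 to 2.34. Rescue against WT ran from -0.65 to 2.09, rescue against triple loss from 0.90 to 4.96 and triple loss against WT from -4.66 to -0.60. Members called higher in Nanog+SoxB1 MO ran from 2 to 4 (targets), from 4 to 6 (processing and effectors) and from 3 to 5 (deadenylation and decapping).

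The 2 shared replicate numbers were not shown to pair samples (correlation of deviations 0.093 and 0.066). With the replicate number as a block, Nanog+SoxB1 MO against WT was -1.30 ± 0.28 (adjusted p = 0.0083), against -1.54 ± 0.32 without it, and 4 targets, 6 processing and effector genes and 5 deadenylation and decapping genes were called higher, against 2, 7 and 6 in the same 5 libraries without it. The rescue comparisons had no value in poly(A)+ RNA alone, where the hairpin failed the filter. Target sites in 3' UTRs were not analysed here. Under 0.5 RPKM, levels rest on 22 reads or fewer.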
